A study of Arabidopsis thaliana with 24 samples.

Results

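Transcript levels of 9 brassinosteroid genes were followed through 8 Arabidopsis thaliana root epidermis mutant lines, out of 21440 genes measured. The members are the synthesis enzymes BR6OX2 (AT3G30180_at), BR6OX1 (AT5G38970_at), DWF4 (AT3G50660_at), CPD (AT5G05690_at), ROT3 (AT4G36380_at), CYP90D1 (AT3G13730_at) and DET2 (AT2G38050_at), the inactivating enzyme BAS1 (AT2G26710_at) and the receptor BRI1 (AT4G39400_at). They were taken by locus code, and all 9 were found. BR6OX2 was selected on measured values, because its level was higher in the lines that carry cpc. Its difference between those lines and the others is therefore given as a description, with no p-value, and so is that of the other 8 genes. Counts of genes past the threshold in that contrast are printed beside the share of all genes, and nothing is read from them.

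Brassinosteroids are plant steroid hormones made from campesterol by a chain of reductases and cytochrome P450 hydroxylases and oxidases. They bind the receptor kinase BRI1 at the cell surface, which starts a signal that inactivates the kinase BIN2 and lets the factors BZR1 and BES1 act on their target genes. Synthesis is under feedback: the hormone lowers transcripts of several of its own synthesis enzymes and raises that of BAS1. In the root, the epidermis is a site of brassinosteroid signalling for growth, and the pathway takes part in the patterning of hair and non-hair cells.

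The 7 single mutants were wer-1 and myb23-1, gl3-1 and egl3-1, cpc-1 and try-82, and ttg2-1, and the last line was labelled with both cpc-1 and ttg2-1. The mutated genes encode transcription factors of the hair and non-hair cell decision. All 8 lines, with 3 arrays each, also carried the WER::GFP reporter, whose promoter is active in developing epidermis and in lateral root cap cells. The plants were 5 days old, kept at 23 C under constant light with 1% sucrose, and RNA came from fluorescent cells sorted from the last 2 mm or so of the root. Wild type was not analysed here, so each comparison is between mutants. In such bulk samples, fewer cells of a type and less RNA per cell cannot be told apart. Values are log2 signals of probe sets, so levels are compared between lines within a gene and never between genes.

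Of the mutated genes, GL3 was not analysed here, and probe positions relative to the mutations were not used. TTG2 was lowest in ttg2, but the other genes were not lowest in their own mutant. TRY was highest in try, at 10.71 ± 0.555 (SD, n = 3) against means of 7.09 to 9.57 elsewhere. CPC read 9.88 ± 0.466 in cpc and 9.85 ± 0.707 in wer, WER 10.99 in wer, EGL3 7.36 in egl3 and MYB23 7.40 in myb23, all inside the range of the other lines. All lines are named by their labels, which these transcript levels do not check except in ttg2.

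The arrays labelled cpc ttg2 stood apart from the rest. TTG2 itself read 8.25 ± 0.544 (SD, n = 3) there against 4.35 ± 0.441 in ttg2, which goes against the label, so these arrays are always called labelled. Their mean array median was 6.49, against 6.68 to 6.83 in the other lines, and their mean 25S rRNA signal was 11.1 against 8.84 in cpc. The epidermis marker WER had line means from 10.4 in those arrays to 11.7 in try, so the sorted tissue's defining marker was present in every line. Against cpc, the arrays labelled cpc ttg2 were higher in the mean of 4 of 4 ground tissue markers and 5 of 5 stele markers, and lower in that of 4 of 4 lateral root cap and 5 of 5 dividing cell markers. Of 3 root hair cell markers 2 were higher, as was the non-hair marker GL2. In cpc the ground tissue and stele markers read 3.38 (EN7) to 6.10 (CASP1). The lateral root cap and dividing cell markers read 7.23 (CYCB1;1) to 10.91 (BRN1). These classes thus also differed in signal level, and the part of that was not tested. Some differences were small, as for SCR from 5.56 to 5.66.

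BR6OX2 and BR6OX1 are a pair of closely related P450 enzymes that carry out the last oxidations of the pathway. BR6OX1 makes castasterone, and BR6OX2 also turns castasterone into brassinolide, the most active brassinosteroid. The level of BR6OX2 was 6.97, 7.03 and 6.91 in the 3 cpc arrays. In the arrays labelled cpc ttg2 it was 6.52, 7.04 and 7.20. All 6 lay above the other 18 arrays, whose highest value was 6.22, in ttg2. The ttg2 arrays read 6.05, 6.22 and 5.43, those of gl3 5.39, 5.29 and 6.07, and those of wer 5.33, 5.09 and 5.83. At the low end, try read 5.46, 5.21 and 4.99, myb23 5.32, 4.58 and 4.91, and egl3 4.78, 4.42 and 5.10. Among the 6 lines without cpc, each line overlapped with its neighbour in the order of means, which ran from 5.90 ± 0.418 in ttg2 to 4.77 ± 0.337 in egl3.

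As a description of the selecting contrast, the BR6OX2 mean in cpc was 1.67 ± 0.213 (SE) above the mean of the 6 lines without cpc, or 3.18-fold. That of the arrays labelled cpc ttg2 was 1.62 ± 0.213 above the same mean. Both differences share those 6 lines. The line means of BR6OX2 spanned 2.21 on the log2 scale, a wider range than that of 92.8% of all genes.

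**Figure D1:**
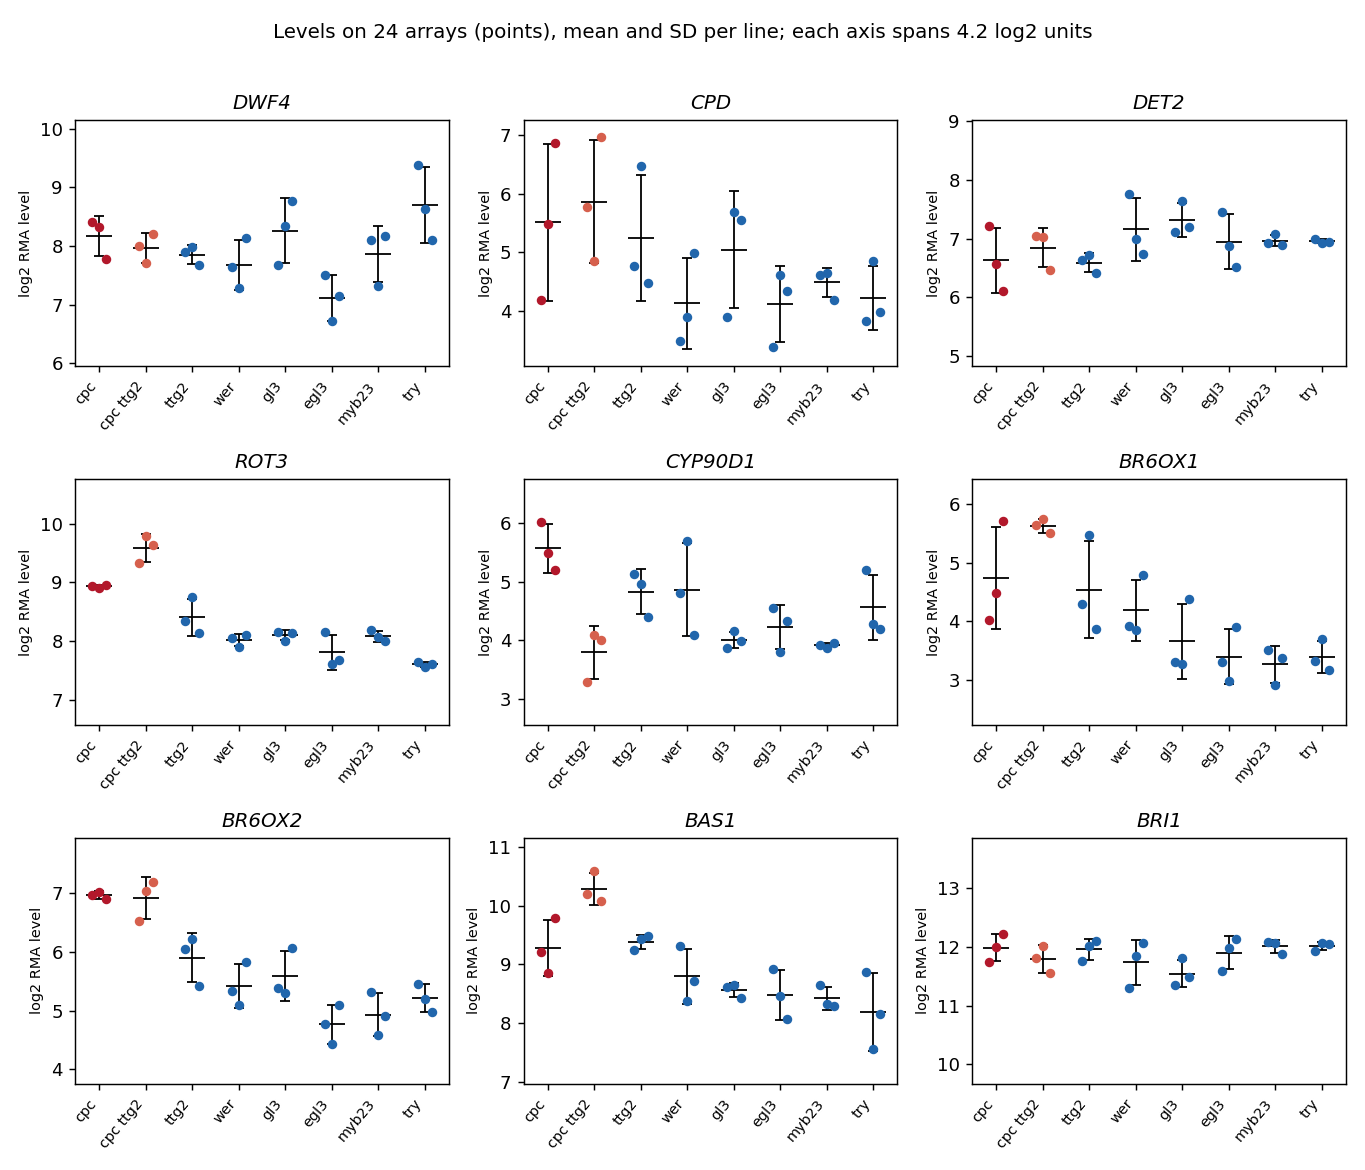
Log2 signal (vertical axis) of each of the 9 members in the 24 arrays, by line (horizontal axis). Points are single arrays, in red for lines with cpc and blue for the others, and bars give the mean and SD of 3; each vertical axis spans the same width. BR6OX2 and ROT3 sit above the other 18 arrays in all 6 arrays of the lines with cpc, while BRI1 stays between 11.30 and 12.22.

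BR6OX1 gave the widest range of line means among the members, 2.37, but on a dim probe set. Its mean over the 24 arrays was 4.10, under the lower quartile of gene means at 4.26. The arrays labelled cpc ttg2 read 5.64, 5.74 and 5.51, and those of cpc read 4.02, 4.48 and 5.71. In ttg2 the values were 4.29, 5.47 and 3.86. The wer arrays followed at 3.93, 3.85 and 4.79, and the means of gl3, egl3, try and myb23 were 3.66, 3.40, 3.39 and 3.26. Unlike those of BR6OX2, the BR6OX1 arrays of cpc overlapped with those of ttg2, wer and gl3, as cpc arrays 1 and 2 lay well under array 3.

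ROT3 and CYP90D1 are P450 enzymes that hydroxylate the same position of the steroid side chain. ROT3 read 8.94, 8.90 and 8.96 in cpc and 9.33, 9.78 and 9.63 in the arrays labelled cpc ttg2. The ttg2 arrays came next, at 8.33, 8.74 and 8.13. These 3 lines formed steps that did not overlap, and the remaining 5 lines had means between 8.10 in gl3 and 7.60 in try. CYP90D1 showed another order. It was highest in cpc, at 6.02, 5.48 and 5.20, and lowest in the arrays labelled cpc ttg2, at 3.28, 4.09 and 4.01. The wer arrays, at 4.81, 5.69 and 4.09, and the ttg2 arrays, at 5.13, 4.96 and 4.40, lay near the upper end, and those of myb23 were tight at 3.92, 3.88 and 3.95.

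DWF4 hydroxylates the side chain at an early, rate-limiting step. It was highest in try, at 9.38, 8.62 and 8.10, and lowest in egl3, at 7.50, 6.72 and 7.14. The gl3 arrays read 7.67, 8.35 and 8.76, all above those of egl3. The cpc arrays, at 8.40, 8.32 and 7.79, and the arrays labelled cpc ttg2, with a mean of 7.97 and values from 7.71 to 8.21, lay inside the range of the other lines. Neighbouring lines overlapped throughout the order of DWF4 means.

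CPD is an oxidase of the steroid ring, and DET2 is the reductase whose mutant is a classic dwarf. CPD read 4.18, 5.48 and 6.86 in cpc and 5.77, 4.86 and 6.96 in the arrays labelled cpc ttg2. Its pooled SD within lines was 0.896, larger than the SD of its 8 line means, 0.680. DET2 ran from a mean of 6.59 in ttg2 to 7.32 in gl3, with a pooled SD of 0.362 against 0.244 for its line means. For both genes every line overlapped with its neighbours in the order of means.

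BAS1 is a P450 enzyme that hydroxylates active brassinosteroids and so inactivates them. Its values were 10.20, 10.59 and 10.07 in the arrays labelled cpc ttg2, above all others. The ttg2 arrays read 9.25, 9.43 and 9.48, and those of cpc 9.21, 8.85 and 9.79. The means of the remaining lines ran from 8.80 in wer to 8.19 in try, whose arrays lay at 8.87, 7.55 and 8.15. The 3 highest line means were those of cpc, ttg2 and the arrays labelled cpc ttg2 for 5 of the 9 members: BAS1, ROT3, BR6OX2, BR6OX1 and CPD. Among these, BR6OX2 was selected for its level in the lines with cpc, and for CPD all neighbouring lines overlapped. The share of all genes with these lines highest was not computed, so nothing is read from this count.

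BRI1 was the steadiest member. Its line means lay between 11.55 in gl3 and 12.02 in try, a range of 0.471, and only 12.3% of all genes had a narrower one. Single arrays ran from 11.30 to 12.22, and the pooled SD within lines was 0.236. Over the 9 members, 63 pairs of lines were neighbours in the order of means. The arrays of 59 of those pairs overlapped, and the 4 others were pairs of BR6OX2, ROT3 and BAS1 that involve cpc or the arrays labelled cpc ttg2. The BR6OX2 pair, of the arrays labelled cpc ttg2 and ttg2, belongs to the contrast on which that gene was selected. The share of such pairs over all genes was not computed, so nothing is read from this count.

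The line labelled cpc ttg2 was then set against cpc. BR6OX2 was not selected on this difference, but its selection for high levels in these lines favours a small one. CYP90D1 fell, while ROT3 and BAS1 rose. CYP90D1 was lower by 3.41-fold, a log2 difference of -1.77 ± 0.354 (SE, 3 arrays a line, adjusted p = 0.0056). ROT3 was higher by 0.65 ± 0.182 (adjusted p = 0.0318) and BAS1 by 1.01 ± 0.31 (adjusted p = 0.0471), both from limma with Benjamini-Hochberg adjustment over all genes. The arrays of the lines did not overlap for any of these 3 genes, which also holds for 25.3% of all genes. The ROT3 and CYP90D1 differences, of enzymes for the same step, thus had opposite signs. The CYP90D1 mean of 3.80 in the arrays labelled cpc ttg2 lay under the lower quartile of gene means, 4.26, so its fold is that of a dim signal and may be compressed.

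These 3 calls among 9 members stand beside 9.1% of all genes called in the same comparison. The other 6 members did not pass the test. BR6OX2 differed by -0.05 ± 0.279, which is a description only, as it was selected for high levels in both lines. BR6OX1 differed by 0.89 ± 0.431 (adjusted p = 0.205 with limma). Without cpc array 3, BR6OX1 was higher by 1.38 and passed (adjusted p = 0.0374). The CYP90D1 call held when any single array was left out. The ROT3 call was lost without cpc array 1 or 2, or without array 2 or 3 labelled cpc ttg2 (adjusted p up to 0.129). The BAS1 call held in 7 of the 24 such fits (adjusted p up to 0.208 with limma), and was also lost under quantile normalization. A fit of these 6 arrays alone ended all 3 calls, with adjusted p = 0.0896 for CYP90D1, 0.184 for ROT3 and 0.168 for BAS1. The part of the marker, rRNA, 3' minus 5' and array median differences of the arrays labelled cpc ttg2 in these results was not tested.

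**Figure D2:**
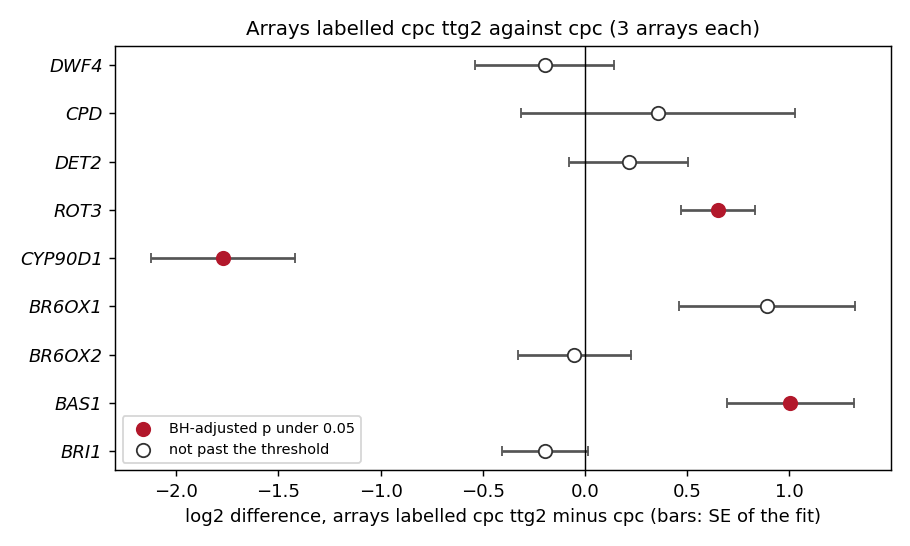
Log2 difference, arrays labelled cpc ttg2 minus cpc, for each member; bars are the SE of the fit, and filled red points passed an adjusted p of 0.05. CYP90D1 lies at -1.77, and ROT3 and BAS1 at 0.65 and 1.01. BR6OX2, selected for high levels in both lines, lies next to 0, and nothing is read from this.

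Against the 6 lines without cpc, 3 members passed the threshold as higher in cpc, beside 1.94% of all genes called in either direction. In the arrays labelled cpc ttg2 5 members passed it, beside 39.6% of all genes. The selection used this contrast, so nothing is read from these counts. The arrays of cpc lay above all 18 others for 2 members, BR6OX2 and ROT3, where 1.04% of all genes did not overlap. Those labelled cpc ttg2 did so for 4 members, which adds BR6OX1 and BAS1, where 14.8% of all genes did not overlap. BR6OX2 was selected for its higher level in these lines, so nothing is read from the counts without overlap either.

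The 6 lines without cpc ask whether the genes differ among the remaining mutants, independently of the selection. In the F test over these lines 0 of 9 members passed, beside 3.04% of all genes, while 5 members had an unadjusted p under 0.05, beside 16.7% of all genes. DWF4 had the smallest adjusted p at 0.0902, followed by BR6OX2 at 0.116 and ROT3 at 0.116. Without gl3 array 1 DWF4 passed (adjusted p = 0.042 with limma).

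Each line was also set against the mean of the other 5, with the same limma fit, and 0 members were called in any of these 6 comparisons. All genes were called at 0.956% for egl3, 0.0373% for gl3, 0.0793% for myb23, 2.48% for try, 0.182% for ttg2 and 1.11% for wer. At an unadjusted p under 0.05 the members numbered 2 for egl3, 1 for gl3, 1 for myb23, 3 for try, 5 for ttg2 and 0 for wer. The shares of all genes at that cut were 11.5%, 6.21%, 3.25%, 12.3%, 17.2% and 14.7%, in the same order. With arrays weighted gene by gene, 3 members were called for try, beside 5107 of all 21440 genes, and 1 for ttg2, beside 502.

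In ttg2 the members' median difference was 0.515, beside -0.008 over all genes, and 5 of 9 had an unadjusted p under 0.05 beside 17.2% of all genes. Of these 5, BAS1, BR6OX2, BR6OX1 and ROT3 had higher values in ttg2 and DET2 a lower one, by -0.48 ± 0.226 (adjusted p = 0.286 with limma). BAS1 was 0.89 ± 0.24 (SE) above the other 5 lines (adjusted p = 0.104 with limma). BR6OX2 was 0.71 ± 0.216 above them (adjusted p = 0.135 with limma), and ROT3 0.48 ± 0.141 (adjusted p = 0.126 with limma). For DWF4 the differences were 0.94 ± 0.263 in try (adjusted p = 0.0645 with limma) and -0.95 ± 0.263 in egl3 (adjusted p = 0.107 with limma). Without gl3 array 3 the try difference of DWF4 passed (adjusted p = 0.0471 with limma). None of these differences passed with all arrays in the fit.

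**Figure D3:**
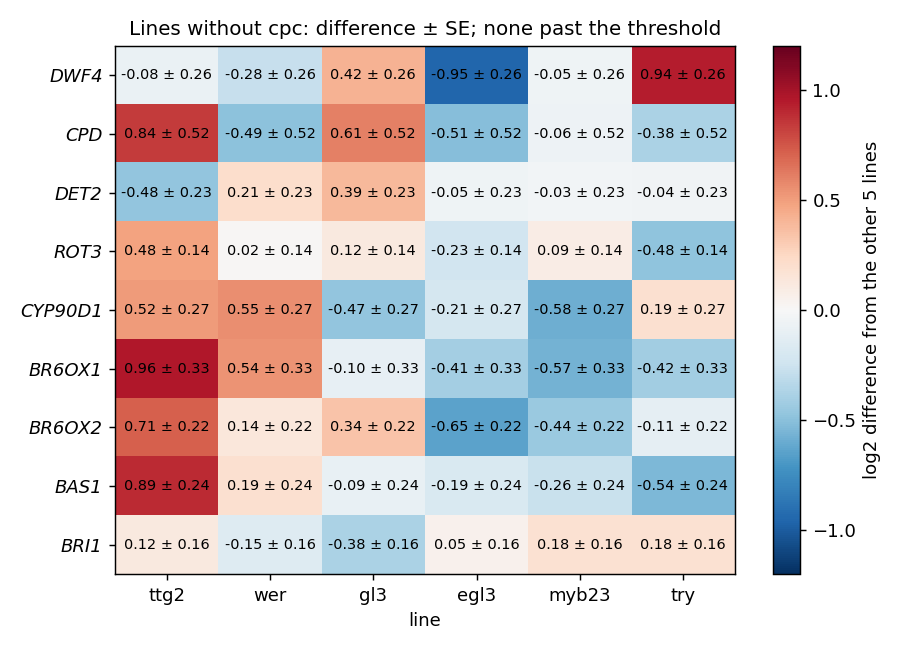
Log2 difference ± SE of each of the 6 lines without cpc (columns) from the mean of the other 5, by member (rows), with the colour giving size and sign. The largest sizes are those of BR6OX1 in ttg2 and of DWF4 in egl3 and try, and no difference passed the threshold of 0.05.

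GL3 and EGL3 are related bHLH factors, and WER and MYB23 related MYB factors, so their mutants were compared in pairs. Of the 9 members, 0 were called between gl3 and egl3, beside 0.658% of all genes, and 0 between wer and myb23, beside 0.0187%. At an unadjusted p under 0.05 there were 2 members in each pair, beside 9.31% and 3.54% of all genes. DWF4 was 1.14 ± 0.339 (SE) higher in gl3 than in egl3 (adjusted p = 0.197 with limma), and BR6OX2 0.82 ± 0.279 higher (adjusted p = 0.29 with limma), without overlap of the arrays, as for 11.8% of all genes. CYP90D1 was 0.95 ± 0.354 and BR6OX1 0.93 ± 0.431 higher in wer than in myb23 (adjusted p = 0.999 for both with limma), without overlap, as for 13.3% of all genes.

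Members were set against each other over arrays, as a description. These points share arrays and normalization, and the 24 arrays include the contrast behind the choice of BR6OX2. BR6OX2 and BR6OX1 had Pearson's r = 0.844 over 24 arrays, 0.842 over the 18 arrays without cpc and 0.636 for deviations from the line means. BR6OX2 and ROT3 had r = 0.873 over 24 arrays but 0.604 over the 18, and 0.349 there without the 2 arrays farthest from the median. ROT3 and BAS1 had 0.866, and 0.691 over the 18. BR6OX2 and DWF4 had 0.358 over 24 arrays, 0.506 over the 18, and 0.669 for deviations from the line means. Over all 36 pairs the median r was 0.073 over 24 arrays, and 9 pairs were over 0.5. DET2 and BRI1 ran against each other, with r = -0.589 over 24 arrays.

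**Figure D4:**
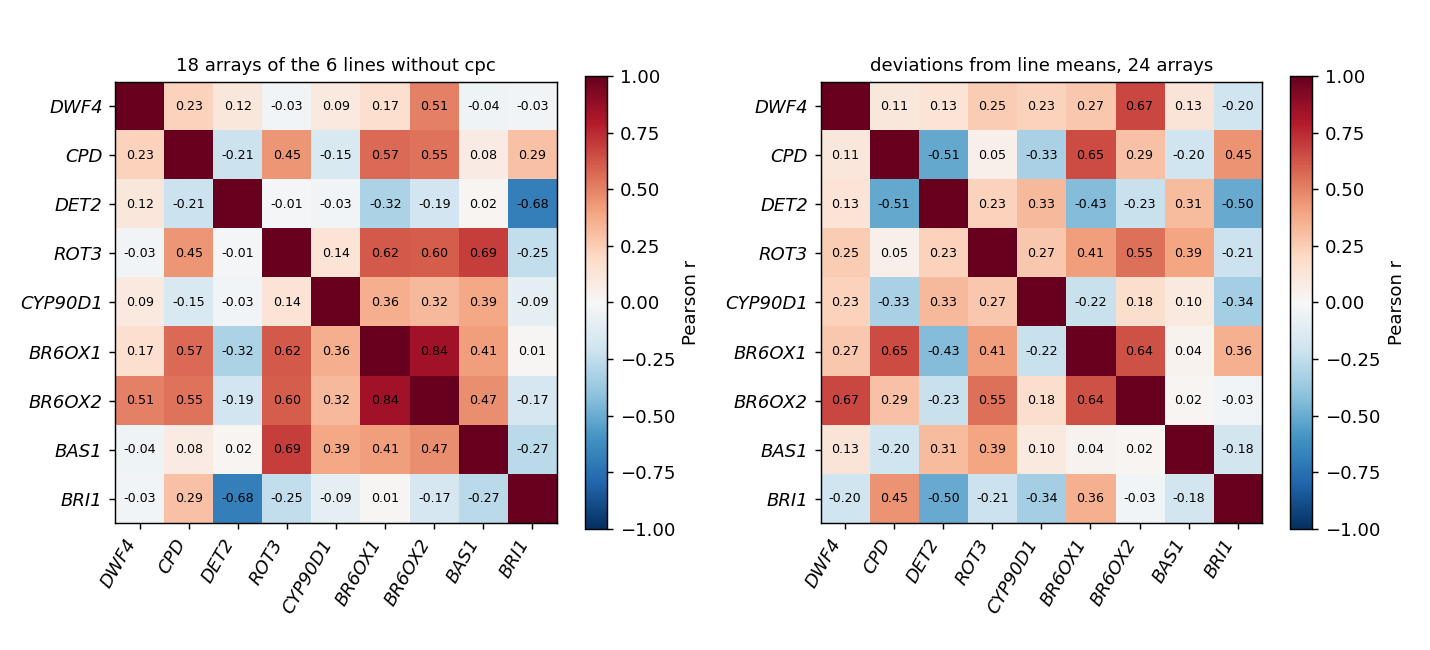
Pearson's r for the 36 pairs of members, over the 18 arrays of lines without cpc (left) and for deviations from the line means on 24 arrays (right); red is positive and blue negative. The pair BR6OX2 and BR6OX1 has 0.842 on the left and 0.636 on the right, and ROT3 and BAS1 have 0.691 and 0.392.

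Part of the spread within lines moved with the signal of mitochondrial transcripts, averaged over 77 entries. For CPD the deviations from line means had r = 0.881 and Spearman's rho = 0.883 with it over 24 arrays, and r = 0.839 without the 2 farthest arrays. Only 0.201% of 21360 nuclear genes had an r as high. CPD also moved with 5S rRNA (r = 0.844), where 2.57% of these genes had an r as high. BR6OX1 did so too (r = 0.758, rho = 0.59), where 6% had an r as high. DET2 moved the other way, with r = -0.751 for mitochondrial transcripts and -0.704 for 5S rRNA, where 1.71% and 3.12% of genes were as low. With the actin 3' minus 5' difference, CPD had r = 0.651, BR6OX1 0.54 and DET2 -0.619. Shares of genes at least as far were 4.81%, 9.6% and 3.03%. The part of these signals in the CPD, BR6OX1 and DET2 values was not tested. For BR6OX2 and ROT3 the values with mitochondrial transcripts were 0.284 and -0.017. With the array median, the deviations of BR6OX2, BR6OX1, ROT3 and BAS1 had r = -0.517, -0.516, -0.439 and -0.459. Over the 24 arrays themselves these were -0.739, -0.823, -0.78 and -0.798. Deviations of DET2 and BRI1 went the other way, at 0.26 and 0.24. The part of the array median in these levels was not tested.

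**Figure D5:**
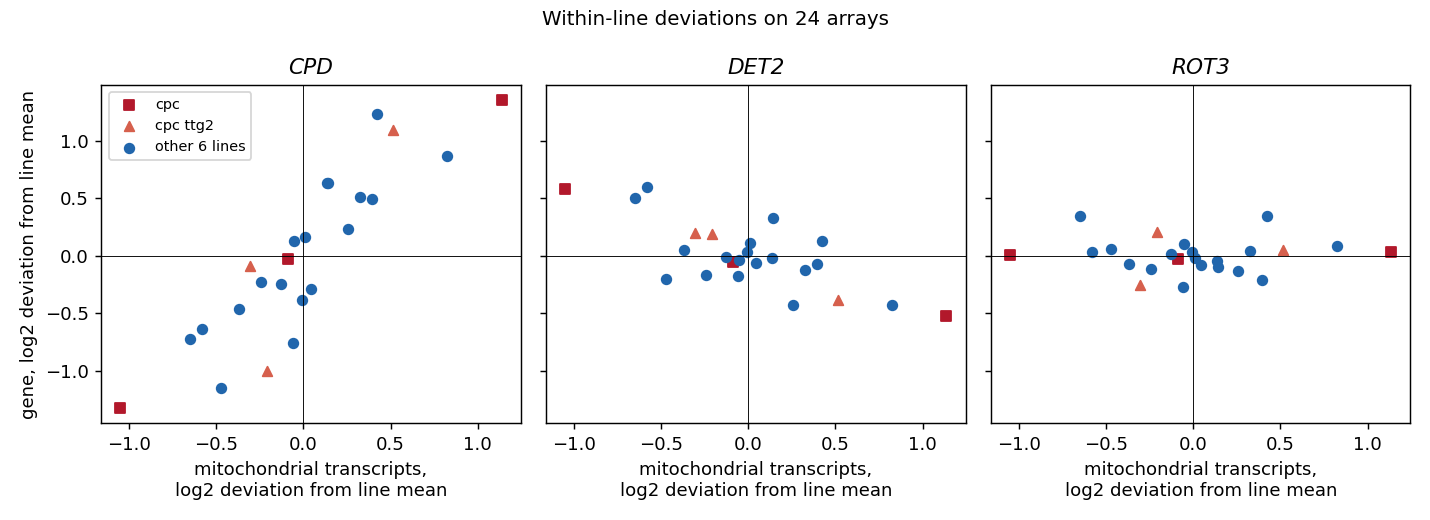
Deviation of the log2 signal of CPD, DET2 and ROT3 from the line mean (vertical axes) against that of the mitochondrial transcripts (horizontal axes) on 24 arrays; squares are cpc, triangles the arrays labelled cpc ttg2 and circles the other 6 lines. CPD deviations run with the mitochondrial ones (r = 0.881), DET2 deviations against them (r = -0.751), and ROT3 shows no slope (r = -0.017).

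Genes with levels most like those of 3 members were listed by Pearson's r over the 24 arrays. For BR6OX2 they were AT5G64850 (r = 0.946), AT3G48940 (0.895), DAR6 (0.895), AT3G30610 (0.889) and MLP423 (0.887). These genes were picked on the same arrays, and the cpc arrays, on which BR6OX2 was selected, are among them. For AT5G64850 r was 0.928 over the 21 arrays without those labelled cpc ttg2, which still hold the cpc arrays, and 0.641 within lines. Its line means ran from 9.16 in the arrays labelled cpc ttg2 and 9.13 in cpc to 6.71 in myb23, with ttg2 next after cpc at 8.10. The 3 genes most like DWF4 had lower values: AT1G53210 0.693, AT5G21105 0.692 and AT4G21865 0.685. For BRI1 they were AT5G17570 (0.791), the sulfite reductase gene SIR (0.776) and ATCHR12 (0.766).

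The rest of the pathway was read from a list of 53 genes, of which 44 were measured; BZR1 and BES1 are among the 9 not analysed here. In the F test over the 6 lines without cpc 1 of 44 passed, beside 3.04% of all genes. This was BIA1, which encodes an acyltransferase that lowers active brassinosteroids (adjusted p = 0.0208 with limma). BIA1 in egl3 differed from the other 5 lines by -1.60 on the log2 scale (adjusted p = 0.0443 with limma), and was 2.14 higher in gl3 than in egl3 (adjusted p = 0.0452 with limma). The egl3 call held in 10 of the 24 fits without 1 array (adjusted p up to 0.437 with limma), and the gl3 call in 8 of 24 (adjusted p up to 0.253). The egl3 call was also lost under quantile normalization and with arrays weighted gene by gene. The gl3 call was lost under quantile normalization and with either kind of array weights. A fit of the arrays of those lines alone ended the gl3 call too (adjusted p = 0.515 with limma). The F call was lost without egl3 array 2 or try array 2 or 3 (adjusted p up to 0.061 with limma). Of the 8 sterol enzymes upstream of the members, 0 passed in this test or between cpc and the arrays labelled cpc ttg2.

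From cpc to the arrays labelled cpc ttg2, 2 of 44 rose and 1 fell, beside 9.1% of all genes called. The median was -0.078 over the list and 0.034 over all genes. BIA1 read 6.64, 5.47 and 6.62 in cpc and 7.30, 8.82 and 7.75 in the arrays labelled cpc ttg2, a rise of 1.71 ± 0.485 (adjusted p = 0.0335 with limma). BSK1, a kinase that relays the BRI1 signal, read 10.79, 10.70 and 10.62 against 11.36, 11.55 and 11.35, a rise of 0.72 ± 0.207 (adjusted p = 0.0364 with limma). BRH1, a RING finger gene whose transcript brassinosteroids lower, read 8.11, 7.26 and 7.11 against 5.89, 5.51 and 5.97, a fall with a difference of -1.70 ± 0.35 (adjusted p = 0.0067 with limma). The arrays of the lines did not overlap for these 3 genes, as for 25.3% of all genes. In a fit of the 6 arrays alone none of the 3 passed, with adjusted p = 0.155 for BIA1, 0.144 for BSK1 and 0.0912 for BRH1. Of the 24 fits without 1 array, the BRH1 call held in 24 and the BIA1 call in 20 (adjusted p up to 0.167 with limma). The BSK1 call held in 18, and was lost without any 1 of the 6 compared arrays (adjusted p up to 0.123 with limma). Between cpc and the 6 lines without cpc 0 of 44 were called with limma, beside 1.94% of all genes, and 9 had an unadjusted p under 0.05, beside 17.1%.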

How the data were processed

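The authors deposited 1 table of log2 values for 24 arrays, and the submitters' processing notes name RMA (robust multi-array averaging) as the normalization. For the array type, probe sets and software version, the sources used here give nothing. RMA compresses differences between dim genes, and whether probes of related genes such as BR6OX1 and BR6OX2 cross-hybridise is unknown. Groups came from the labels. The 64 control entries among 21504 were left out. All arrays entered 1 linear model, with a mean for each line, in limma 3.58.1 under R 4.3.3, with 2-sided tests and Benjamini-Hochberg adjustment over 21440 genes at 0.05; it was tested on simulated data. Its p-values rest on the spread between a line's 3 arrays, pooled over all lines in the model. That spread is not the one of the compared lines alone, which only the fits of fewer arrays use. Gene names came from RefSeq, assembly TAIR10.1. Members, lists and tests were chosen with earlier results of these data known. The genes named are the 9 members, list genes called in the F test or between cpc and the arrays labelled cpc ttg2, and those most like 3 members. Alternatives were centring, quantile normalization, an intensity trend, a filter on dim genes, fits of fewer arrays, array weights, a replicate block and leaving out each array.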

Additional observations from a re-analysis of the deposited data

How the results depend on the processing

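No called difference changed direction. The count of 3 members called between cpc and the arrays labelled cpc ttg2 became 0 in a fit of those arrays alone, and ran from 1 to 4 without single arrays, with 1 when cpc array 1 or 2, or array 2 or 3 labelled cpc ttg2, was left out. For the pathway list, the count of 3 became 6 with each array centred on its median, 0 in the fit of those arrays alone and 10 with either kind of array weights, and ran from 1 to 4 without single arrays. Centring moved the median of all genes in this comparison from 0.034 to 0.225, and the split of calls from 813 higher and 1137 lower to 1508 and 838. In the F test the 0 members became 6 with array weights and 5 with weights estimated gene by gene, and ran from 0 to 1 without single arrays; the 1 list gene became 2 in the fit of those lines alone, 21 and 10 with the weights, and ran from 0 to 1. For try against the other 5 lines the 0 members became 7 and 3 with the weights, where 11674 and 5107 of all 21440 genes were called, and 0 to 1 without single arrays. For ttg2 they became 3 and 1, beside 828 and 502 of all genes, and for wer 1 with array weights, beside 577. For cpc against the 6 lines, the contrast of the selection, 3 became 5 with either, beside 5187 and 5144 of all genes, and nothing is read from it. Gene-by-gene weights were added after seeing the data, since the planned weights did not converge and put a weight of 54.9 on try array 3. All genes called went from 1950 to 61 in the fit of the 6 arrays labelled cpc ttg2 or cpc, and from 651 to 10470 in the F test with those weights, or 4231 gene by gene.

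With the replicate number as a block, 3 members were called between cpc and the arrays labelled cpc ttg2, and no other member count changed. The same-numbered arrays of these lines had deviation correlations of 0.231, -0.089 and 0.58, so the numbers were not taken to pair them; 3 of the 6 arrays correlated best with their own number. With 3 arrays a line and no detection calls used here, differences of dim genes such as BR6OX1 are the least precise.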
